A study of Rattus norvegicus with 8 samples.

Results

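The cyclin-dependent kinase (CDK) inhibitors of the rat form a set of 7 genes, which were read by 10 probes of the 30367 non-control probes on the array. The genes were taken by name, as Cdkn1a, Cdkn1b, Cdkn1c, Cdkn2a, Cdkn2b, Cdkn2c and Cdkn2d, and each probe was kept on its own because the 2 Cdkn1a probes gave different answers between the treatment groups. The pair was thus selected on its log2 differences between monocrotaline and saline, and the set was drawn up with those differences in view, so the differences of these 10 probes are given below as a description, without a test. Cells were captured from rat lung with beads against CD31, a surface protein of endothelial cells, after collagenase digestion of whole lung and with no culture step. The tested rats were Sprague-Dawley animals that had received monocrotaline under the skin at 60 mg/kg 5 days earlier, and the others were Sprague-Dawley animals given saline, with 4 arrays per group. All were 8 to 10 weeks old. The labels describe each sample as cells of a rat and mention no pooling; nothing else says that the preparations were separate, so the p-values below measure the spread between these samples, which may be technical. Monocrotaline is a plant alkaloid whose liver-made metabolite injures the lung endothelium, and it is widely used in rats to produce pulmonary hypertension over the following weeks. Each array was hybridised with RNA labelled in 1 colour, so every value is the brightness of a spot.

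CDK inhibitors are small proteins that bind cyclin-dependent kinases or their complexes with cyclins and hold cells out of division. The Cip/Kip proteins p21 (Cdkn1a), p27 (Cdkn1b) and p57 (Cdkn1c) act on complexes with cyclin E and cyclin A and also help to assemble those with cyclin D, while the INK4 proteins p16 (Cdkn2a), p15 (Cdkn2b), p18 (Cdkn2c) and p19 (Cdkn2d) bind Cdk4 and Cdk6 alone. In endothelium they are known for the arrest that accompanies confluence, laminar flow, DNA damage and senescence.

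Signals are given as log2 of the processed signal minus the 75th percentile of the same array, so a value of 0 stands for a probe as bright as that percentile, and a difference of 1 is a 2-fold change. Levels of different probes cannot be set against each other on this scale, and only differences between arrays within a probe are read. All 8 arrays lay on 1 slide, with the monocrotaline arrays in one row and the saline arrays in the other, so array row and treatment cannot be told apart. The share of spots well above background was 70.8% to 77.7% per array, no spot was saturated, and the 75th percentile of log2 signal lay between 10.03 and 11.10. The 12 endothelial markers measured were above background on every array, and their summed scaled level was 153.7 to 262 on monocrotaline arrays, against 238.2 to 340.8 on saline arrays. Of the 12, 0 had a log2 difference of monocrotaline minus saline above 0, and the median was -0.56. By limma 0 were called, and at an unadjusted p under 0.05 the counts were 6 lower and 0 higher. Of all probes, 7.09% were lower and 6.72% higher at that threshold. The 15 T and NK cell markers were also above background on every array. Their summed level was 16.2 to 29.9 on monocrotaline arrays, against 3.84 to 9.04 on saline arrays, with no overlap. Of the 15, 3 were called higher, against 1.36% of all probes. The airway secretory and ciliated markers stood above the saline mean on monocrotaline replicates 1 and 3 by 3.16 and 3.38 in mean log2, and on replicates 2 and 4 by 0.64 and 1.02. The saline arrays ran from -1.02 to 0.84 on this measure. Their summed level was not higher, at 28.8 to 59.6 on monocrotaline arrays against 45.3 to 60.4 on saline arrays. Tppp3, the brightest of these markers, had a log2 difference of -0.54. On a bead-captured tissue sample, fewer cells of a type and less RNA per cell cannot be told apart. The part of any of these markers in the results below was not tested. With monocrotaline replicates 1 and 3 left out, an alternative chosen after seeing the data, the log2 differences that were farthest from 0 were 2.34 instead of 2.48 for probe A_44_P914438 of Cdkn1a, 1.44 instead of 1.41 for Cdkn2c and 0.70 instead of 0.72 for Cdkn2d.

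All 10 probes of the inhibitors were well above background on all 8 arrays. The groups did not overlap for 3 of them, which read Cdkn1a, Cdkn2c and Cdkn2d, each higher in monocrotaline, while 8.56% of the 21652 probes kept had groups that did not overlap and 4.67% did so with monocrotaline higher and 3.89% with monocrotaline lower. Of the 10 probes, 1 (Cdkn2c) was past an adjusted p of 0.05 in the limma fit over all probes, where 1.42% of all probes were, and with 1 array left out Cdkn2c stayed past it only without monocrotaline replicate 3. Nothing is read from these counts, because the contrast was in view when the probes were picked. The log2 difference of monocrotaline minus saline was above 0 for 7 of the 10, and it lay between -0.12 and 0.72 for every probe other than 1 probe of Cdkn1a and that of Cdkn2c. The median over all probes was -0.02.

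**Figure D1:**
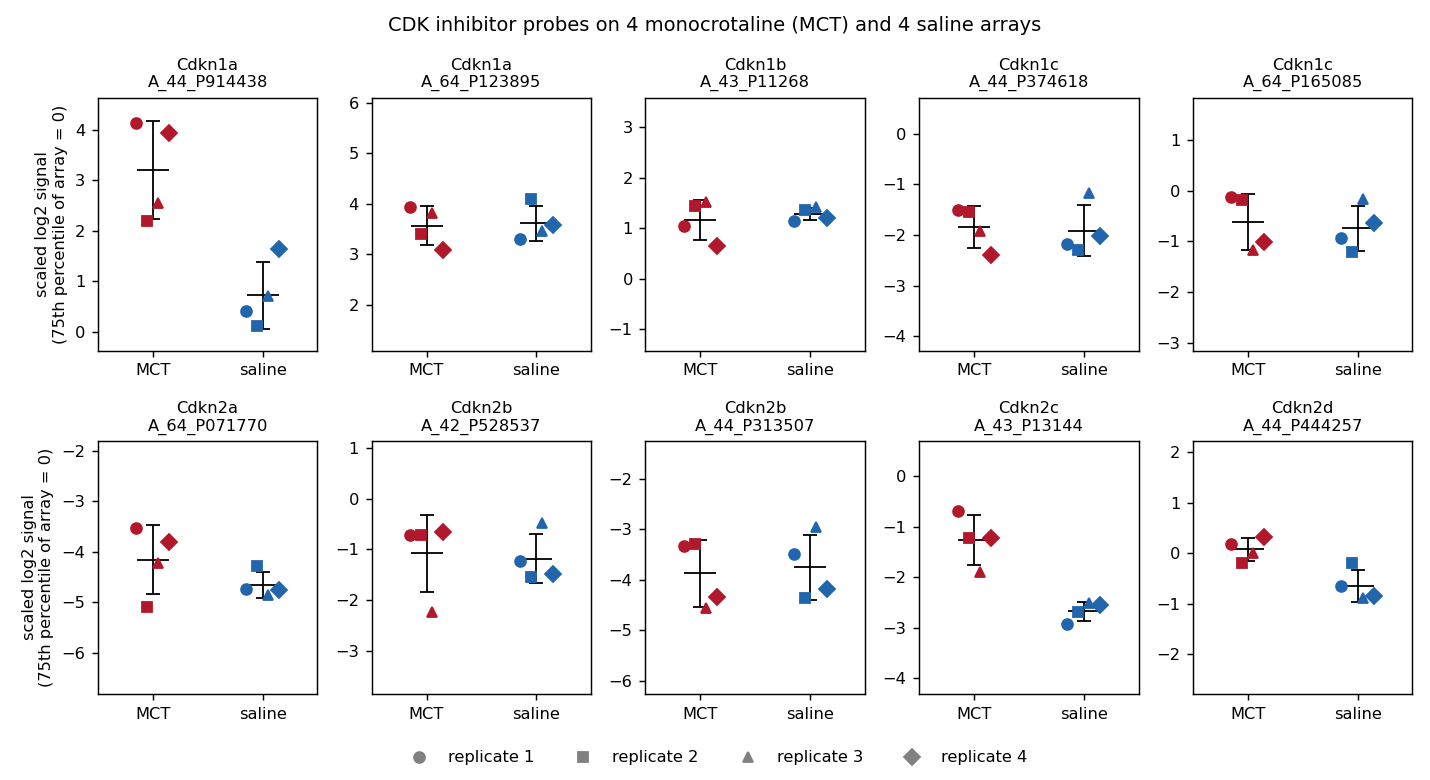
Scaled log2 signal of the 10 CDK inhibitor probes on each of the 4 monocrotaline and 4 saline arrays, 1 panel per probe, with the black bars giving the group mean and SD. Probe A_44_P914438 of Cdkn1a and the probe of Cdkn2c separate the groups, that of Cdkn2d does so by a margin of 0.0062, and the second Cdkn1a probe has means of 3.57 in monocrotaline and 3.61 in saline.

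Cdkn1a encodes p21, a broad inhibitor of cyclin-CDK complexes that also binds Pcna. Its probe A_44_P914438, a single spot per array, gave 4.13, 2.18, 2.56 and 3.92 on monocrotaline replicates 1 to 4, against 0.42, 0.12, 0.71 and 1.64 on saline replicates 1 to 4. Every monocrotaline array was brighter than every saline array, and the gap between the dimmest of the first and the brightest of the second was 0.55. Within monocrotaline, replicates 1 and 4 stood well above replicates 2 and 3, and within saline, replicate 4 was the brightest. The means were 3.20 ± 0.97 in monocrotaline and 0.72 ± 0.66 in saline (SD, n = 4 each), a log2 difference of 2.48 ± 0.51 (SE), or 5.58-fold. That difference lay between 2.17 and 2.82 in 18 other settings of scaling, filter and arrays, and the groups were apart in all 19. Settings that change only the filter or the fit keep the same values. Leaving arrays out cannot make groups that are apart overlap. Only background correction and scaling could have brought overlap, and the groups were apart there too. The deposited table holds the quantile-normalized signals again. With flagged spots kept, the single spot of this probe was the same, and only the percentile of the array moved slightly.

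The second probe of Cdkn1a, A_64_P123895, spotted 2 times per array, read the same gene as nearly flat. It gave 3.94, 3.41, 3.82 and 3.09 on monocrotaline replicates 1 to 4, against 3.30, 4.09, 3.47 and 3.58 on saline replicates 1 to 4. The groups overlapped over most of their range, with means of 3.57 ± 0.39 in monocrotaline and 3.61 ± 0.34 in saline and a log2 difference of -0.04 ± 0.24. Before any scaling, its processed signal stayed between 17101 and 24576 over the 8 arrays, a 1.44-fold range, and only 324 of all probes kept, or 1.5%, had a range that narrow. The median probe had a 2.485-fold range, and the 75th percentile of the arrays themselves ranged 2.108-fold. After scaling, this probe was lowest on monocrotaline replicate 4, the array with the highest percentile (11.10), and highest on saline replicate 2, the array with the lowest (10.03). By contrast the unscaled signal of probe A_44_P914438 ran from 1131 to 33362, a 29.5-fold range. Without scaling, the log2 differences were 2.74 for A_44_P914438 and 0.22 for A_64_P123895, so the probes disagreed before scaling too.

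The pair was set against the 1804 genes for which exactly 2 probes were kept, among which the median gap between the probes' log2 differences was 0.13. The gap for Cdkn1a was 2.52, and no other gene in that set had one as wide, which makes it 0.0554% of them. On the root mean square difference between the probes' centred profiles over the 8 arrays, Cdkn1a had 1.51 where the median gene had 0.21, and 2 genes, itself included, reached that value. These figures describe the disagreement for which the pair was picked. The sequences and positions of the probes in the transcript were not used here, so which stretch of the Cdkn1a message each one reads is not given. A rule that keeps only the brightest probe of each gene would keep the flat one.

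**Figure D2:**
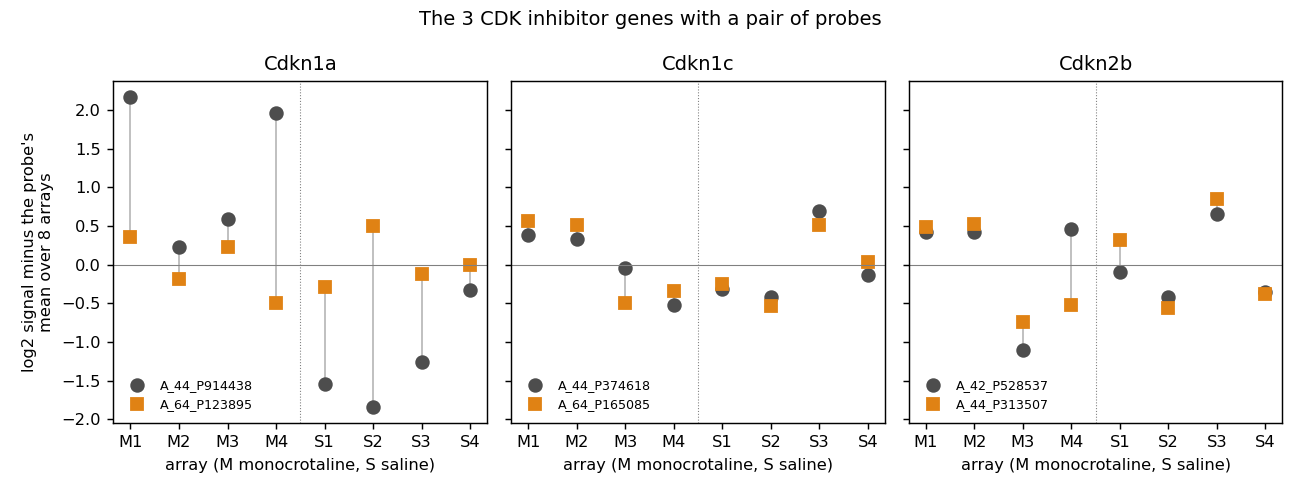
Scaled log2 signal of each probe minus its own mean over the 8 arrays, for the 3 inhibitor genes with a pair of probes, with monocrotaline arrays (M) left of saline arrays (S) and a grey line joining the probes on 1 array. For Cdkn1a the probes part most on monocrotaline replicate 4, while those of Cdkn1c and Cdkn2b stay close on most arrays.

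The genes nearest to each Cdkn1a probe were found by the root mean square difference between centred log2 profiles over the 8 arrays. Nearest to A_44_P914438 were Eme1 (0.32), Lrr1 (0.35), Espl1 (0.37), Mcm10 (0.38) and Pbk (0.39), whose log2 differences ran from 2.22 for Espl1 to 2.86 for Pbk. Nearest to A_64_P123895 were Psd (0.048), Clpsl2 (0.10), Spsb4 (0.10), Spata2 (0.11) and Taf15 (0.11), whose log2 differences ran from -0.14 for Spsb4 to 0.0086 for Clpsl2. The second set shared the narrow unscaled range, from 1.44-fold for Psd to 1.58-fold for Spata2. The neighbours were picked for likeness in these same 8 values, so their differences add nothing to those of the probes.

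Cdkn1b encodes p27, an inhibitor held mainly at the level of protein stability. Its probe, spotted 10 times per array with a coefficient of variation between spots of 2.49% to 4.52%, gave 1.04, 1.45, 1.51 and 0.64 on monocrotaline replicates 1 to 4, against 1.15, 1.35, 1.42 and 1.20 on saline replicates 1 to 4. The saline arrays lay inside the range of the monocrotaline arrays, whose replicate 4 was the dimmest of all. The means were 1.16 ± 0.40 in monocrotaline and 1.28 ± 0.13 in saline, a log2 difference of -0.12 ± 0.20. Across 19 other settings it ran from -0.24 to 0.05, the highest being the value without monocrotaline replicate 4. Its groups overlapped in all 20 settings.

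Cdkn1c encodes p57, an imprinted gene of differentiating and quiescent cells. Its probe A_44_P374618 gave -1.50, -1.54, -1.92 and -2.40 on monocrotaline replicates 1 to 4, against -2.19, -2.29, -1.18 and -2.02 on saline replicates 1 to 4. Its probe A_64_P165085 gave -0.12, -0.17, -1.18 and -1.02 in the same order of monocrotaline replicates, against -0.93, -1.21, -0.16 and -0.64 on saline replicates 1 to 4. Both probes put monocrotaline replicates 1 and 2 and saline replicate 3 high, and the groups overlapped on both. The log2 differences were 0.08 ± 0.29 for the first probe and 0.12 ± 0.32 for the second, a gap of 0.04, and 83.5% of the genes with a pair of probes had a gap at least as wide. The probe profiles of Cdkn1c differed by 0.22 in root mean square, close to the median of 0.21 for such genes, where those of Cdkn1a differed by 1.51.

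Of the INK4 genes, Cdkn2c separated the groups most. It encodes p18, which binds Cdk6 and Cdk4, and its probe gave -0.68, -1.23, -1.91 and -1.23 on monocrotaline replicates 1 to 4, against -2.93, -2.69, -2.52 and -2.55 on saline replicates 1 to 4. All 4 monocrotaline arrays were brighter than all 4 saline arrays, with a gap of 0.61 between the groups, and the saline arrays lay close together. The means were -1.26 ± 0.50 in monocrotaline and -2.67 ± 0.19 in saline, a log2 difference of 1.41 ± 0.25, or 2.66-fold. In 19 other settings it ran from 1.19 to 1.62. The groups were apart in all 20, among them normexp, quantile normalization and median scaling, which change the values. The summed T and NK cell markers were likewise higher on each monocrotaline array, at 19.8, 16.2, 29.9 and 27.7 on replicates 1 to 4. Their sum was highest on replicate 3, where Cdkn2c was the dimmest of the monocrotaline arrays. The part of these markers in this difference, and in those of Cdkn1a and Cdkn2d, was not tested.

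Cdkn2d encodes p19, the INK4 protein whose message is known to rise and fall through the cell cycle. Its probe, a single spot per array, gave 0.19, -0.19, 0.0051 and 0.32 on monocrotaline replicates 1 to 4, against -0.64, -0.20, -0.88 and -0.85 on saline replicates 1 to 4. The groups only just failed to overlap, since monocrotaline replicate 2 and saline replicate 2 were 0.0062 apart. The means were 0.08 ± 0.22 in monocrotaline and -0.64 ± 0.31 in saline, a log2 difference of 0.72 ± 0.19, or 1.65-fold. It ran from 0.64 to 0.87 in the other settings. The groups overlapped with normexp background correction, quantile normalization, median scaling and the authors' deposited table. They were apart in the other 16 of 20, most of which keep the values of this probe or only leave arrays out. Of the alternatives that change the values, only the one with flagged spots kept left the groups apart. It moved only the percentile of the array, since the single spot of this probe was not flagged on any array.

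Promoter sequence is given for these 2 INK4 genes to show the GC boxes and the E2F core counted below. RefSeq's promoter table (build GRCr8) held 6 of the 7 inhibitor genes, with 250 bases before and 50 after the start it uses for each. That start need not be the start of the RefSeq gene. For Cdkn2a and Cdkn2c all 250 bases lie inside the RefSeq gene, and for Cdkn1a, Cdkn1b and Cdkn2b a part of them does. Only those of Cdkn2d lie wholly outside, so the counts below are not counts of sequence upstream of the genes. For Cdkn2d, chr8:28110810-28111059 on the minus strand (GRCr8, RefSeq) holds 5 GC boxes, GGGCGG on either strand, in capitals. For Cdkn2c, chr5:129644866-129644895 on the minus strand holds an E2F core, in capitals, just inside the start the table uses.
Cdkn2d: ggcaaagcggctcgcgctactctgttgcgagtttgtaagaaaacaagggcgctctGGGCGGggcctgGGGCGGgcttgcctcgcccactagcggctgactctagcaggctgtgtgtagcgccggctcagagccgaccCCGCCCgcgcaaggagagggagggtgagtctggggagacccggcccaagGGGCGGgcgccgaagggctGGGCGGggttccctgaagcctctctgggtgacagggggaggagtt
Cdkn2c: ctcggtcgtagGCGGGAAgttactggtgag
The E2F core was searched on both strands as TTCCCGC, as TTCGCGC, as TTGCCGC and as TTGGCGC, and 2 of the 6 inhibitor promoters held it (Cdkn1b and Cdkn2c), against 9.52% of the 33465 promoters. A GC box was in 5 of the 6, Cdkn1a being the one without, against 33.1% of all. A match of letters is a description of the sequence and not a binding site, and the arrays hold no measurement of binding. The E2F core was thus present in one gene whose groups were apart and in one whose groups overlapped, and a GC box was present in genes of both kinds.

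Cdkn2a encodes p16 and, through another reading frame, the protein known as Arf, and the identifiers do not say which message its probe reads. The probe gave -3.53, -5.09, -4.22 and -3.80 on monocrotaline replicates 1 to 4, against -4.73, -4.27, -4.86 and -4.76 on saline replicates 1 to 4. Monocrotaline replicates 1, 3 and 4 were brighter than every saline array, and replicate 2 was dimmer than all of them. The means were -4.16 ± 0.68 in monocrotaline and -4.65 ± 0.26 in saline, a log2 difference of 0.49 ± 0.32. It rested on which arrays were used, since it was 0.80 without monocrotaline replicate 2, where the groups no longer overlapped, and 0.28 without replicate 1. It was 0.19 with normexp.

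Cdkn2b, the neighbour of Cdkn2a on chromosome 5, encodes p15, known as a target of transforming growth factor beta. Its probe A_42_P528537, spotted 10 times, gave -0.71, -0.71, -2.24 and -0.66 on monocrotaline replicates 1 to 4, against -1.22, -1.55, -0.48 and -1.48 on saline replicates 1 to 4. Its probe A_44_P313507 gave -3.32, -3.29, -4.55 and -4.33 on the monocrotaline arrays, against -3.49, -4.37, -2.96 and -4.19 on the saline arrays. On both probes monocrotaline replicate 3 was the dimmest of the 8 and saline replicate 3 the brightest, and they parted on monocrotaline replicate 4, which only the first put high. The log2 differences were 0.10 ± 0.40 and -0.12 ± 0.40, and 28.8% of genes with a pair of probes had a gap at least as wide as theirs (0.22). The probe profiles of Cdkn2b differed by 0.41 in root mean square, above the median of 0.21, and 13.6% of such genes reached that value. The summed level of 10 smooth muscle and pericyte markers was 20.8, 36.0, 9.47 and 18.9 on monocrotaline replicates 1 to 4, against 17.0, 6.13, 35.9 and 12.5 on saline replicates 1 to 4. That sum was thus low on monocrotaline replicate 3 and high on saline replicate 3, as Cdkn2b was, and its part in the Cdkn2b values was not tested.

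**Figure D3:**
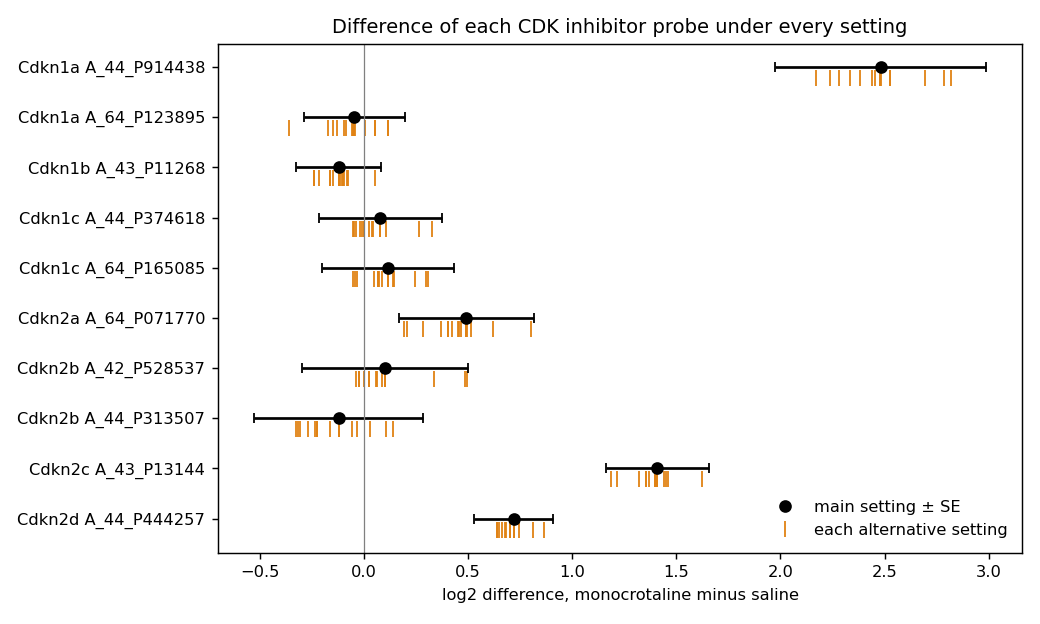
Log2 difference of monocrotaline minus saline for each of the 10 CDK inhibitor probes, as a point with the SE of the fit over all probes, and an orange tick for each other setting. Only A_44_P914438 of Cdkn1a, at 2.48, and Cdkn2c, at 1.41, lie above 0.72.

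The partners of the inhibitors were read from a list of 12 cyclins, CDKs and Pcna, with 1 probe per gene. Of the 12, 5 rose in monocrotaline (adjusted p under 0.05, limma over 21652 probes) and 0 fell, against 1.36% and 0.0647% of all probes, and at an unadjusted p under 0.05 the counts were 7 and 1, where 6.72% of all probes were higher and 7.09% lower. Their median log2 difference was 0.73. Ccne2, a cyclin of the entry into S phase, gave -2.03, -2.44, -2.87 and -1.99 on monocrotaline replicates 1 to 4, against -5.86, -5.96, -5.91 and -5.06 on saline replicates 1 to 4. It rose by 3.36 ± 0.27 in log2 (limma adjusted p = 0.0044), although it was well above background on only 2 of the 4 saline arrays. With normexp the Ccne2 difference was 1.84. Ccne1, the other cyclin E, rose by 2.93 ± 0.31 (limma adjusted p = 0.0102), and Ccna2, the cyclin of S and G2 phase, by 2.02 ± 0.32 (limma adjusted p = 0.0261). The groups of all 3 were apart. Cdk1 and Pcna were also called. The kinases that the INK4 proteins bind were not, at 0.30 for Cdk4 and -0.58 for Cdk6, and the groups of Cdk6 were apart with monocrotaline lower. The D cyclins were not called either, at 0.28 for Ccnd1, -0.23 for Ccnd2 and -0.45 for Ccnd3. The 5 calls became 2 without monocrotaline replicate 1 or 4 or without saline replicate 2, 3 or 4, and 1 without saline replicate 1.

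Other brakes on CDKs gave 2 called genes of 8 measured, both higher in monocrotaline, against 1.36% of all probes called higher. The median was 0.13. Pkmyt1, the kinase that holds Cdk1 phosphorylated and inactive, gave 0.47, 0.28, 0.12 and 0.78 on monocrotaline replicates 1 to 4, against -1.15, -0.95, -1.20 and -1.24 on saline replicates 1 to 4. It rose by 1.55 ± 0.16 (limma adjusted p = 0.0102). Cdkn3, a phosphatase that removes the activating phosphate of CDKs, rose by 1.41 ± 0.25 (limma adjusted p = 0.0371). With normexp the Cdkn3 difference was 0.78 (limma adjusted p = 0.0821). The 6 others, among them Wee1 at 0.74 and Btg1 at 0.10, were not called. The 2 calls became 1 without monocrotaline replicate 1, 2 or 4 or saline replicate 2, 3 or 4, and 0 without saline replicate 1.

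In the RB and E2F family, 1 of 9 was called higher, against 1.36% of all probes. E2f7, a repressor of E2F targets, rose by 1.18 ± 0.19 (limma adjusted p = 0.0268), with -4.13, -4.64, -4.98 and -4.37 on monocrotaline replicates 1 to 4, against -5.60, -5.89, -5.75 and -5.60 on saline replicates 1 to 4. Its saline mean was as low as that of Ccne2, at -5.71 against -5.70. With normexp the E2f7 difference was only 0.37 (limma adjusted p = 0.338). Rb1, the substrate whose phosphorylation the inhibitors prevent, had a log2 difference of 0.03 and was not called. The median of the 9 was 0.35. The call was lost without monocrotaline replicate 1 or 4 or without any single saline array, and without monocrotaline replicate 2 the count was 2.

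Among 9 genes of the machinery that degrades the inhibitors, 1 was called higher, against 1.36% of all probes, and the median was 0.18. Skp2, the substrate receptor that targets p27 and p21, gave -2.87, -3.13, -3.34 and -2.60 on monocrotaline replicates 1 to 4, against -4.75, -4.63, -4.78 and -4.45 on saline replicates 1 to 4. It rose by 1.67 ± 0.18 (limma adjusted p = 0.0102), where the p27 message itself was -0.12 ± 0.20. With normexp the Skp2 difference was 0.99 (limma adjusted p = 0.023). The count was 0 without saline replicate 1 and 2 without monocrotaline replicate 3.

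A further list held 20 measured regulators of inhibitor gene transcription, mostly transcription factors, with chromatin proteins such as Ezh2 among them. Of the 20, 0 were called by limma, with 1 higher and 5 lower at an unadjusted p under 0.05, where 6.72% of all probes were higher and 7.09% lower. Their median was -0.32, and 2 of the 20 were above 0. Klf4, a flow-induced factor of endothelium with the highest mean signal on the list, averaged 4.01 ± 0.21 in monocrotaline and 4.28 ± 0.20 in saline, a log2 difference of -0.27 ± 0.16 (limma adjusted p = 0.485). The summed endothelial markers were also lower on 2 of the monocrotaline arrays than on any saline array, and their part in these differences was not tested.

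**Figure D4:**
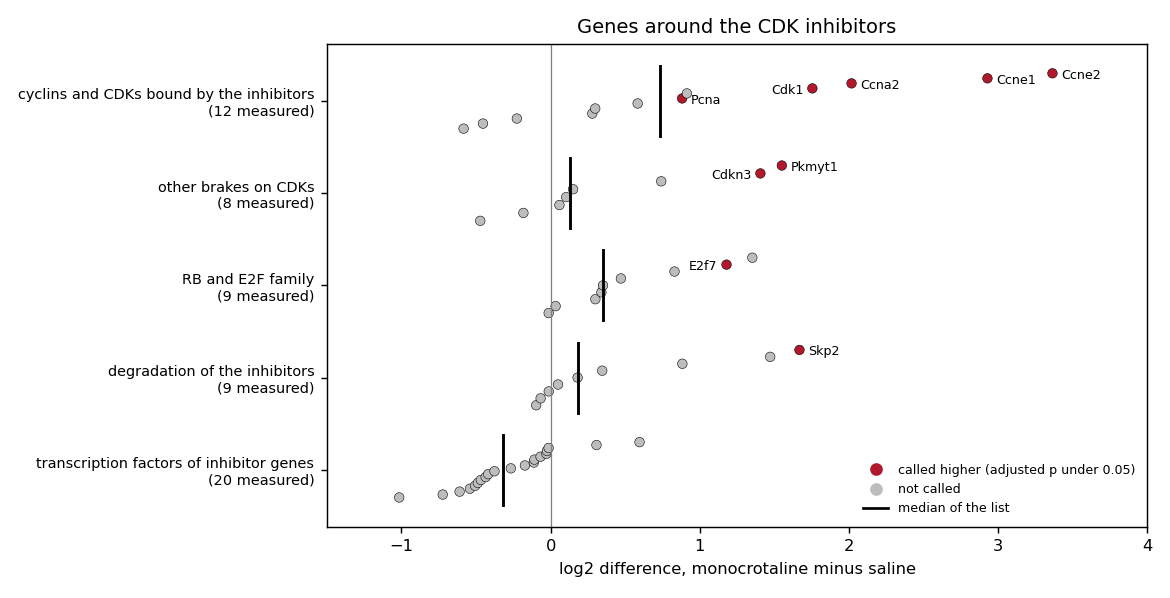
Log2 difference of monocrotaline minus saline for each measured gene of 5 pathway lists, with red points for genes called at an adjusted p under 0.05 and a black line at the median of each list. The called genes are all higher in monocrotaline, and the list of transcription factors and other regulators has its median at -0.32.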

How the data were processed

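The arrays were read as intensity: per the file headers the deposited processed signal of Agilent Feature Extraction 10.7.3.1 is background-subtracted and detrended, and it was not scaled between arrays. Per the file headers the flags for outliers, saturation and signal well above background (0 or 1) came from the same software. In the values the authors deposited, log2 had been applied again to signals that were in log2 already: undoing that step gave quantile-normalized log2 signals (median absolute difference 9.89e-10), which served as an alternative. The submitters' processing notes name limma 3.6.9.

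Control and flagged spots were left out (17 probes had none left on an array), and the processed signals of a probe's other spots were averaged. Log2 was then taken, and each array's 75th percentile over probes was subtracted. The 21652 probes well above background on at least 4 of 8 arrays were kept. Identifiers matched a RefSeq symbol for 18006 probes. The fit was limma 3.58.1 (lmFit and eBayes, R 4.3.3) on 4 monocrotaline against 4 saline arrays, with Benjamini-Hochberg adjustment over all kept probes and a threshold of 0.05. It was tested on simulated data. The number of arrays limits the precision.

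The inhibitors and gene lists were chosen with earlier results of these data known. Pathway lists used the probe with the highest mean signal per gene, and the text names up to 3 called genes per list with the largest difference or, with none called, the brightest, besides values for other list members given as context. One further pathway list is not reported here. The genes nearest to each Cdkn1a probe were given. Of the cell type markers, sums were given for the endothelial, T and NK cell, airway, and smooth muscle and pericyte lists. On every other marker list the sums of the groups overlapped. Monocrotaline replicate 3 had an erythroid sum of 479.9 (saline at most 149.2) and a neutrophil sum of 8.145 (at most 2.997). Monocrotaline replicate 1 had a platelet sum of 15 (at most 4.535). The part of these markers in the results was not tested. The other settings were 18 planned (background correction, scaling, filters, spots, probe choice, moderation, a replicate block, each array left out) and 1 chosen after seeing the data (monocrotaline replicates 1 and 3 left out). For normexp (offset 50) the median spot signal was used, since the mean was not in the columns used here. No column was left without a sample (0).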

Additional observations from a re-analysis of the deposited data

Results flagged for a closer look

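In 62 groups of 4 arrays, 1 array stood apart from the other 3 by Dixon's gap test in 3, where chance gives such a flag in about 1 group in 20. For probe A_42_P528537 of Cdkn2b, monocrotaline replicate 3 was at -2.24 in scaled log2 signal, and the other monocrotaline arrays lay between -0.71 and -0.66. For Ccne2, saline replicate 4 was at -5.06, and the other saline arrays lay between -5.96 and -5.86. For Lyz2, a macrophage lysozyme gene, saline replicate 2 was at 7.53, and the other saline arrays lay between 6.75 and 6.81.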

How the results depend on the processing

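In the 19 other settings no log2 difference of an inhibitor probe moved by as much as the pooled SD of its groups, though those near 0 changed sign (Cdkn1b, Cdkn1c, Cdkn2b and probe A_64_P123895 of Cdkn1a). Counts of calls moved more, and the cause was not tested. Against 294 probes higher and 14 lower, 1 inhibitor probe called and list counts of 5 (cyclins and CDKs), 2 (other brakes), 1 (RB and E2F) and 1 (degradation), normexp gave 23 probes lower, 2 inhibitor probes, 1 other brake and 0 of RB and E2F. Quantile normalization and the deposited table each gave 0 inhibitor probes and 1 other brake. Median scaling gave 3 cyclins and CDKs. No filter gave 9 probes lower, 0 inhibitor probes, 3 cyclins and CDKs and 1 other brake. A trended, robust fit gave 2 inhibitor probes and 2 of degradation. With monocrotaline replicates 1 and 3 left out, chosen after seeing the data, 62 probes were higher, 1 was lower, and the lists gave 2, 1 and 0 for cyclins and CDKs, other brakes and RB and E2F.

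With 1 array left out, the counts ran from 14 (without saline replicate 1) to 316 for probes higher, 0 to 108 for probes lower, 0 to 1 for inhibitor probes, 1 to 5 for cyclins and CDKs, and 0 to 2 for other brakes, for RB and E2F and for degradation. Of the markers, Sftpc turned to -0.43 without saline replicate 2 and was at most 0.70 with 1 array left out, Actg2 turned to -0.035 without saline replicate 2 and was at most 0.87, and S100a9 to -0.15 with monocrotaline replicates 1 and 3 left out. Cdkn3 lost its call in 13 of 19 settings, E2f7 in 9 and Ccna2 in 8.

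Whether the replicate numbers pair the samples is not known. Same-numbered monocrotaline and saline arrays lay in the same column of the slide. Deviations of same-numbered arrays correlated at -0.01, -0.24, -0.33 and -0.19, and no array correlated best with its own number. With so few arrays these correlations cannot decide whether a pairing exists. With the replicate block the counts were 0 for probes higher, probes lower, inhibitor probes, cyclins and CDKs, other brakes, RB and E2F and degradation; at an unadjusted p under 0.05 limma with the block had 1177 probes higher and 926 lower, and 7, 3, 4 and 3 genes higher in those 4 lists. Ccne2 was near background on saline arrays, which limits its fold.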

Other observations

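The genes nearest to Cdkn2c, to the first probe of Cdkn2b and to Cdkn2a were listed after their values were seen, with the same measure of likeness over 8 arrays. Those of the remaining inhibitor probes are not given. Nearest to Cdkn2c were Tedc2 (root mean square difference 0.18), H2ax (0.19), Gins2 (0.20), Chtf18 (0.20) and Cks1b (0.21), whose log2 differences ran from 1.08 for H2ax to 1.28 for Gins2. Nearest to the first probe of Cdkn2b were Mylk (0.17), Ptgr1 (0.19), Itgb5 (0.19), C3h9orf50 (0.20) and Nid2 (0.21). Their log2 differences ran from -0.11 for Nid2 to 0.37 for C3h9orf50. Nearest to Cdkn2a were Pcsk4 (0.16), Plaat5 (0.19), Gapdh (0.20), Mlec (0.20) and Fut7 (0.23). All these genes were picked for likeness in the same 8 values, so their differences add nothing to those of the probes.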
